A study of Mus musculus with 30 samples.

Results

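Serpinb9, Serpinb6b, Serpinb6a and Serpinb9b encode intracellular serpins of clade B, and their transcripts were followed in naive and memory CD8+ T cells of the mouse across all 10 groups of an array study. The 4 members were picked by gene symbol, because Serpinb9 and Serpinb6b were among the transcripts that differed most between naive cells from mixed culture and naive cells cultured alone. Each of the 4 had 1 probe set on the array, among 19938 genes that could be named singly. The differences between mixed and lone naive cells therefore describe how the genes were chosen, and no test is given for them. Other comparisons that use the stimulated naive arrays share those arrays with the choice. Their tests for Serpinb9 and Serpinb6b are thus not independent of it.

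Killer T cells carry granzymes in their granules, proteases that perforin lets into a target cell. Granzyme that leaks into the cytosol of the killer cell can harm that cell, and serpins bind such proteases irreversibly by offering them a bait loop. Serpinb9, the mouse counterpart of human PI-9, inhibits granzyme B and protects cytotoxic cells from their own granules. Serpinb6b inhibits granzyme A in the mouse, and Serpinb9b, also called SPI-CI, inhibits granzyme M. Serpinb6a is known chiefly as an inhibitor of cathepsin G, so the name granzyme inhibitor fits it less well than the other members.

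All cells carried the Pmel-1 transgenic T cell receptor and came from spleens of C57BL/6 mice, aged 6 to 12 weeks and labelled female. Memory cells (TMem, Ly5.2) were differentiated in vitro, and naive cells (TN) were Ly5.1. The 10 groups had 3 arrays each: TMem alone and TN alone without stimulation (0 h), and TMem mixed with TN, TMem alone, TN mixed with TMem and TN alone, each after 18 h and after 96 h of antibodies against CD3 and CD28 with IL-2. Every population was sorted by flow cytometry before RNA extraction, and the series text calls the 3 arrays biological repeats. The study asked how memory cells change the differentiation of naive cells stimulated beside them.

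The arrays went against their labels in 1 respect. Eif2s3y, a Y-linked gene, read 8.82 to 9.51 log2 units in the 15 TMem arrays. In TN cells it read 4.0 to 4.58 at 0 h and at 96 h alone, but 7.34 to 8.5 in the 9 other TN arrays. Xist, which silences an X chromosome in female cells, read 4.99 to 6.02 in TMem and 9.34 to 12.1 in TN arrays. Sex-linked transcripts thus differed between TMem and TN, between TN mix and TN alone at 96 h, and between 18 h and the other times in TN alone, and their part in results that follow the same groups was not tested. Between TN mix and TN alone at 18 h, Eif2s3y differed by only 0.22.

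Markers of CD8+ T cells averaged 11.2 to 12.3 on every array (7 of 8 measured). Some markers of other cells stood out in TN alone at 96 h. There the mean of 10 B cell and MHC class II genes was 7.38 to 7.45, against 6.13 to 6.74 on the other arrays, with H2-Aa at 9.35 to 9.54. From the same list, Ms4a1 (mean 4.80), Cd79a (4.77), Cd22 (6.33), Pax5 (6.35) and Blnk (5.57) did not stand out there. Cd79b averaged 9.58 there and 9.56 in TN at 0 h. The mean of 12 myeloid genes was 6.72 to 6.75 there, against 5.82 to 6.63 elsewhere, and Lyz2 read 8.2 to 8.37, against at most 6.23 elsewhere. Of the myeloid genes, S100a8 (mean 5.14), Adgre1 (5.28), Cd14 (5.94), Itgam (6.00), Ly6g (6.12) and S100a9 (6.13) did not stand out there. Lgals3 (10.63) and Fcer1g (8.28) were higher in TMem alone at 96 h, at 11.41 and 9.33. Mast cell genes (8 of 8 measured) averaged 6.69 to 6.85 in TN alone at 96 h and 6.53 to 6.90 in TMem at 0 h, against 5.72 to 6.24 elsewhere. Among them Tpsab1 (mean 6.10) and Hdc (6.62) did not stand out in TN alone at 96 h. NK cell genes (5 of 6 measured) averaged 6.97 to 7.06 in TN alone at 96 h and 6.23 to 6.92 elsewhere. They include Nkg7, also a granule gene, whose group means ran from 11.49 (TN alone, 18 h) to 12.35 (TMem alone, 18 h). CD4 T cell genes (6 of 6) averaged 6.92 to 7.01 in TN alone at 96 h and 6.32 to 6.74 elsewhere. In bulk RNA, fewer cells of a type and less RNA per cell cannot be told apart.

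**Figure D1:**
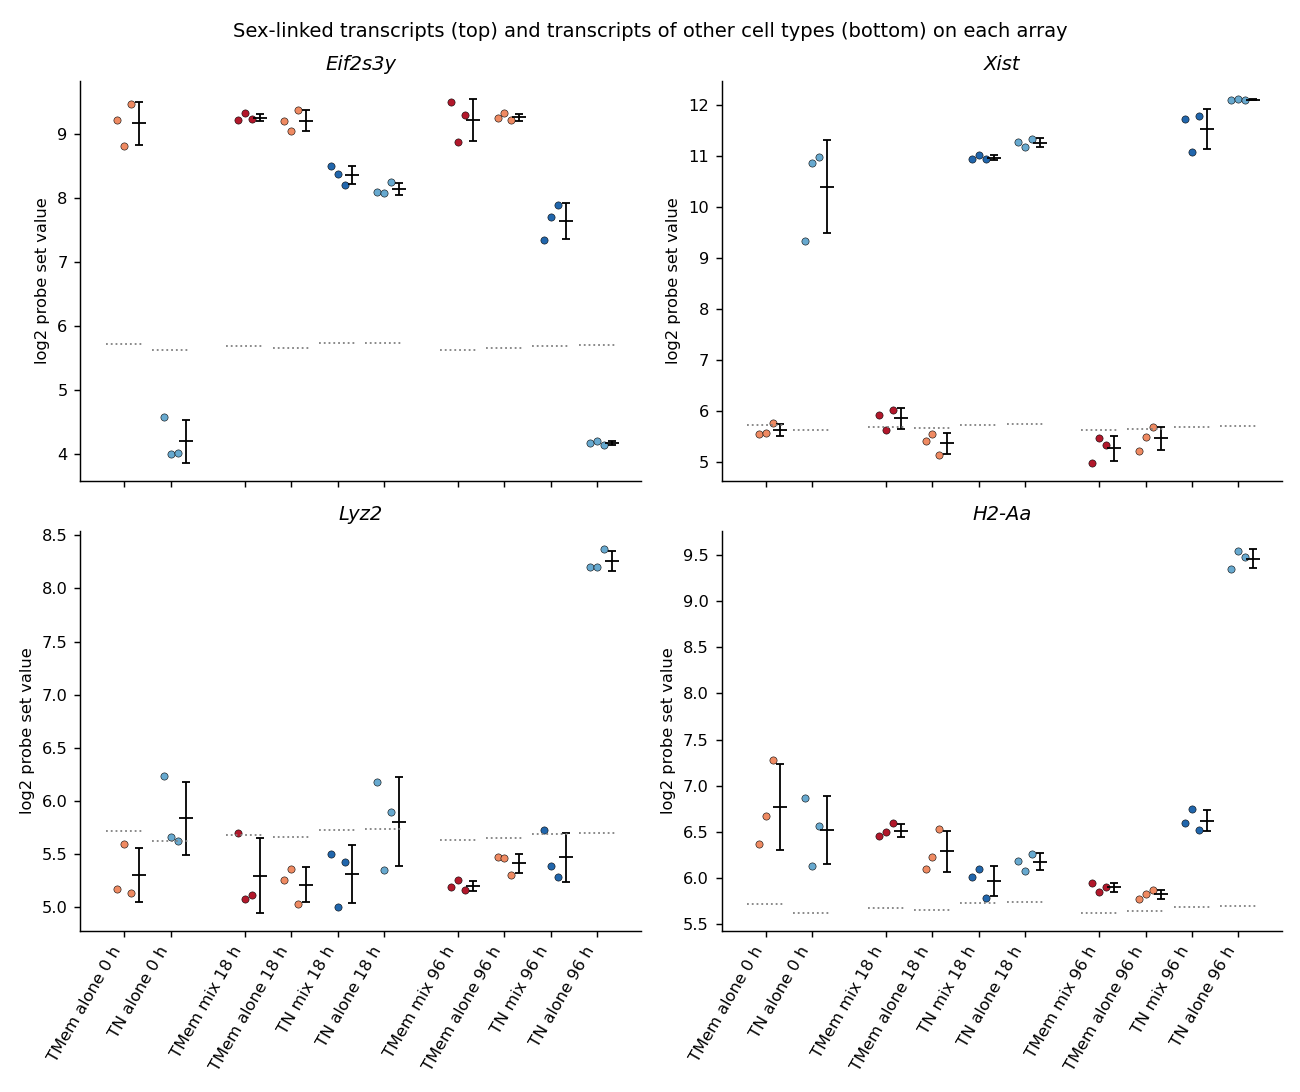
Log2 probe set value on each array for Eif2s3y and Xist (top) and Lyz2 and H2-Aa (bottom), by group. Points are arrays, crosses with bars are the mean and SD of 3 arrays, and dotted lines are the mean lower quartile of the arrays in the group. Eif2s3y is at 8.82 to 9.51 in TMem, and H2-Aa and Lyz2 are highest in TN alone at 96 h.

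The members lie in a cluster of 16 Serpinb genes on mouse chromosome 13, between Wrnip1 and Nqo2. Serpinb6b, Serpinb9 and Serpinb9b follow each other directly, and Serpinb6a stands at the other end. The promoters of the 3 adjacent genes are shown because these genes lie side by side and all peaked at 18 h in TMem. Each window is 300 bases long and ends 50 bases after the start site (RefSeq, GRCm38.p6), and is written 5′ to 3′. Capitals mark matches, on either strand, to the NFAT core GGAAA, the Runx core TGTGGT and the T-box core TCACAC.
Serpinb9, chr13:33004291-33004590, plus strand: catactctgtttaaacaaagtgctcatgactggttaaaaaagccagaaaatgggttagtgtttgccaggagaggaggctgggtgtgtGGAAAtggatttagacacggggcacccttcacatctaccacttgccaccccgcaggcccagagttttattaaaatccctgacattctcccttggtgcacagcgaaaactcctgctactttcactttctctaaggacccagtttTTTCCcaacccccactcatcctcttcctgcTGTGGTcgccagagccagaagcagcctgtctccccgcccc
Serpinb6b, chr13:32965011-32965310, plus strand: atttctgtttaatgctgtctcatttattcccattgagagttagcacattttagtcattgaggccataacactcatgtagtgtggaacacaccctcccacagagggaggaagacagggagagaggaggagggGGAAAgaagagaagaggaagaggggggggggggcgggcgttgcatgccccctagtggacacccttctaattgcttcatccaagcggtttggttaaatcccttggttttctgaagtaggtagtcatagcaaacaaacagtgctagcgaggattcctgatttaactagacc
Serpinb9b, chr13:33027164-33027463, plus strand: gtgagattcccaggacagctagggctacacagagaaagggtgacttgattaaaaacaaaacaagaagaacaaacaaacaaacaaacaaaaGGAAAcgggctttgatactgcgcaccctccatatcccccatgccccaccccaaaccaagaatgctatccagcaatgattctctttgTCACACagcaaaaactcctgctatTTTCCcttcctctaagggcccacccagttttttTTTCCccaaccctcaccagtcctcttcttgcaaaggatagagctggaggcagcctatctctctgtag

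The Serpinb9 promoter held GGAAA at -163 and, on the opposite strand, at -20, and TGTGGT at 11, counted from the start site. Serpinb6b held GGAAA once, at -119. Serpinb9b held GGAAA 3 times (-160, -50 and -17) and TCACAC at -74. Neither the AP-1 motif TGANTCA nor the STAT motif TTCNNNGAA occurred in these 3 windows. Serpinb6a has 2 listed start sites, and only the upstream one held TTCNNNGAA, 2 times, each overlapping a GGAAA match. Among 32851 mouse promoters of this length, 61.3% held GGAAA, 16.8% TGTGGT, 14.5% TCACAC, 8.3% TTCNNNGAA and 7.81% TGANTCA. The Serpinb9 and Serpinb9b windows were identical at 67.4% of aligned bases (186 of 276), Serpinb9 and Serpinb6b at 59.4%, and Serpinb6b and Serpinb9b at 54.8%. These matches describe letters in the windows, and no binding was measured.

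All values below are log2 units, and levels are compared only within a gene, since each probe set has its own brightness. Array lower quartiles lay at 5.58 to 5.77. All 40 group means of the members were above the mean lower quartile of their arrays. Serpinb9 ranged over 3.87 log2 units between its highest and lowest group mean (14.6-fold), Serpinb6b over 4.39 (21.0-fold), Serpinb6a over 2.63 (6.21-fold) and Serpinb9b over 2.91 (7.51-fold).

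Serpinb9 read 10.41, 9.81 and 9.73 in TMem and 8.88, 8.0 and 8.26 in TN at 0 h. At 18 h it read 11.98, 12.05 and 11.86 in TMem mix, 12.23, 12.21 and 12.29 in TMem alone, 10.69, 10.98 and 10.78 in TN mix, and 9.28, 9.33 and 9.45 in TN alone. At 96 h it read 11.07, 11.06 and 10.95 in TMem mix, 10.89, 10.99 and 10.88 in TMem alone, 9.46, 9.79 and 9.48 in TN mix, and 8.67, 8.92 and 8.76 in TN alone. The granzyme B inhibitor was thus highest in TMem alone at 18 h and lowest in resting TN, and at each time every TMem array was above every TN array. In the order of means, TMem alone at 96 h (10.92) and TN mix at 18 h (10.81) were closer than their pooled SD.

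Serpinb6b read 11.09, 10.39 and 9.33 in TMem and 10.07, 9.16 and 9.49 in TN at 0 h. At 18 h it read 12.54, 12.63 and 12.50 in TMem mix, 12.66, 12.62 and 12.70 in TMem alone, 11.18, 11.14 and 11.18 in TN mix, and 9.68, 9.80 and 9.92 in TN alone. At 96 h it read 11.51, 11.43 and 11.55 in TMem mix, 10.88, 11.08 and 10.93 in TMem alone, 9.78, 10.05 and 9.75 in TN mix, and 8.10, 8.46 and 8.24 in TN alone. The granzyme A inhibitor spread most among resting TMem (SD 0.89), where the arrays overlapped those of resting TN. TN alone at 96 h was the lowest group. The means of TMem at 0 h (10.27), TN mix at 96 h (9.86), TN alone at 18 h (9.80) and TN at 0 h (9.58) each lay within the pooled SD of the next.

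Serpinb6a, the cathepsin G inhibitor, read 9.22, 8.77 and 8.24 in TMem and 8.26, 7.73 and 7.60 in TN at 0 h. At 18 h it read 8.77, 8.96 and 9.13 in TMem mix, 9.07, 9.31 and 9.22 in TMem alone, 7.11, 7.14 and 7.11 in TN mix, and 6.88, 6.82 and 7.2 in TN alone. At 96 h it read 9.72, 9.83 and 9.26 in TMem mix, 9.42, 9.33 and 9.49 in TMem alone, 8.27, 9.06 and 8.90 in TN mix, and 6.97, 7.37 and 7.14 in TN alone. Its highest means were in TMem at 96 h, not 18 h, and its lowest were the 3 stimulated TN groups other than TN mix at 96 h. TN mix at 96 h (8.74), TMem mix at 18 h (8.95) and TMem at 0 h (8.74) lay within their pooled SDs of each other in the order, and so did TMem mix (9.60) and TMem alone (9.41) at 96 h.

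Serpinb9b, the granzyme M inhibitor, read 6.83, 6.39 and 6.37 in TMem and 6.24, 6.09 and 6.22 in TN at 0 h. At 18 h it read 8.4, 8.51 and 8.77 in TMem mix, 8.96, 9.29 and 9.03 in TMem alone, 6.28, 6.46 and 6.18 in TN mix, and 6.27, 6.16 and 6.20 in TN alone. At 96 h it read 7.06, 7.16 and 7.05 in TMem mix, 6.53, 6.70 and 6.77 in TMem alone, 6.35, 6.24 and 6.25 in TN mix, and 6.33, 6.07 and 6.21 in TN alone. Only the TMem groups at 18 h and TMem mix at 96 h lay above 7. The 5 TN means spanned 6.18 to 6.31, close to the lower quartile of the arrays, and neighbours among them overlapped.

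**Figure D2:**
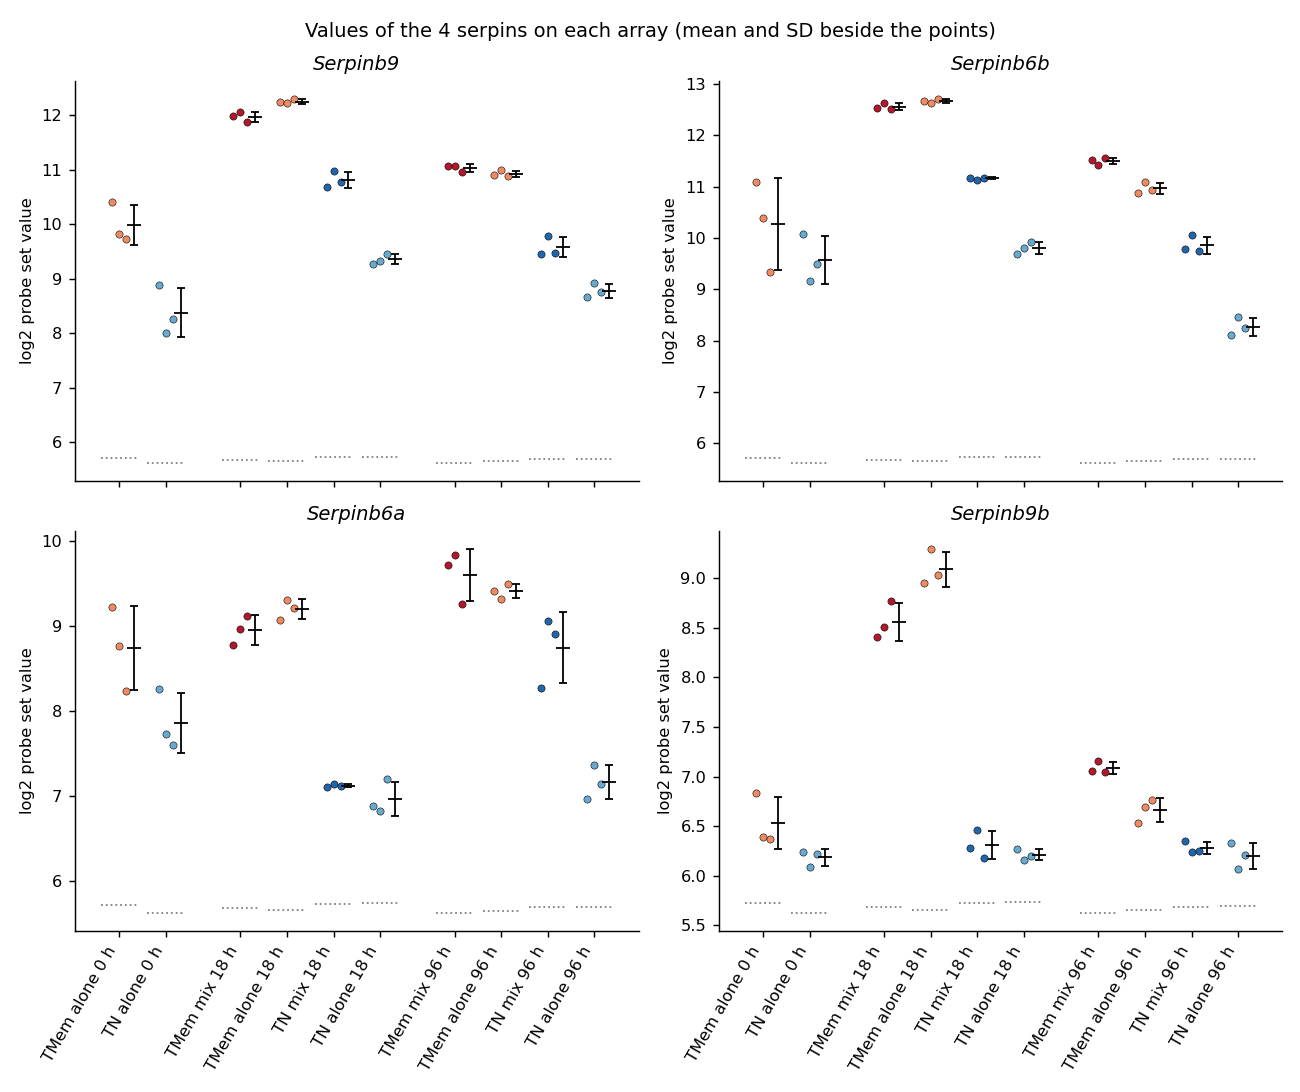
Log2 probe set value of the 4 serpins on each array by group. Points are arrays, crosses with bars are the mean and SD of 3 arrays, and dotted lines are the mean lower quartile of the arrays in the group. TMem stand above TN at every time for Serpinb9, and Serpinb9b leaves the level of 6.18 to 6.31 seen in TN only in TMem.

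Memory cells cultured alone held more of these transcripts than naive cells cultured alone, by a margin that was larger at 18 h than at 0 h for all 4. At 0 h the differences, TMem minus TN, were 1.61 for Serpinb9 (3.05-fold, adjusted p = 2.52e-09), 0.88 for Serpinb6a (adjusted p = 0.000922), 0.70 for Serpinb6b (adjusted p = 0.0241) and 0.35 for Serpinb9b (adjusted p = 0.0175), from limma across all genes with Benjamini-Hochberg adjustment. All 4 passed the test, where 35.9% of all genes did. The Serpinb6b difference was 0.29 (adjusted p = 0.333) without TMem 0 h replicate 1 and 0.49 (adjusted p = 0.159) without TN 0 h replicate 2. It also missed the threshold without TMem replicate 2 or TN replicate 3, with median centring (0.57, adjusted p = 0.0648) and in a fit of the 2 groups alone (adjusted p = 0.276). The Serpinb9b difference was 0.20 (adjusted p = 0.2) without TMem 0 h replicate 1 and 0.30 (adjusted p = 0.0726) without TN 0 h replicate 2. It also missed the threshold with quantile normalization (0.24, adjusted p = 0.119), with median centring (0.23, adjusted p = 0.158) and in a fit of the 2 groups alone (adjusted p = 0.150). Serpinb9 and Serpinb6a kept their calls without any 1 array. Mast cell genes were higher in TMem than in TN at 0 h (4 of 8), and their part was not tested.

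At 18 h alone the differences were 2.89 for Serpinb9 (7.42-fold, adjusted p = 1.52e-14), 2.86 for Serpinb6b (7.27-fold, adjusted p = 1.41e-10), 2.23 for Serpinb6a (4.70-fold, adjusted p = 7.00e-10) and 2.88 for Serpinb9b (7.37-fold, adjusted p = 1.66e-17) in the limma fit. All 4 passed, against 28.9% of genes, and no TMem array overlapped a TN array. At 96 h alone they were 2.14, 2.69, 2.25 and 0.47, in the same order of genes, with the limma adjusted p for Serpinb9b at 0.00295. Again all 4 passed, against 22.2% of genes. Serpinb9 and Serpinb6b were chosen on TN arrays of these 2 times, so their tests here are not independent of the choice. B cell and MHC class II genes (5 of 10) and mast cell genes (5 of 8) were lower in TMem than in TN there. None was higher, and their part was not tested. The SE of these differences was 0.16 for Serpinb9, 0.24 for Serpinb6b, 0.20 for Serpinb6a and 0.11 for Serpinb9b.

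Cells sorted out of mixed culture differed in the same direction. At 18 h TMem mix exceeded TN mix by 1.15 for Serpinb9, 1.40 for Serpinb6b, 1.83 for Serpinb6a and 2.26 for Serpinb9b, and all 4 passed, against 20.4% of genes. At 96 h the differences were 1.45, 1.64, 0.86 and 0.80, and all 4 passed, against 10.6% of genes. The TN mix arrays, too, were among those on which Serpinb9 and Serpinb6b were chosen. The Serpinb6a difference at 96 h (limma adjusted p = 0.00459) was 0.62 (adjusted p = 0.0658) without TN mix 96 h replicate 1, the array that read 8.27. Over the 5 comparisons of TMem with TN, the groups overlapped for Serpinb6b and Serpinb6a at 0 h. How often the groups of other genes overlapped was not counted. The Y-linked genes were higher in TMem in all 5 comparisons (3 of 3 measured).

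**Figure D3:**
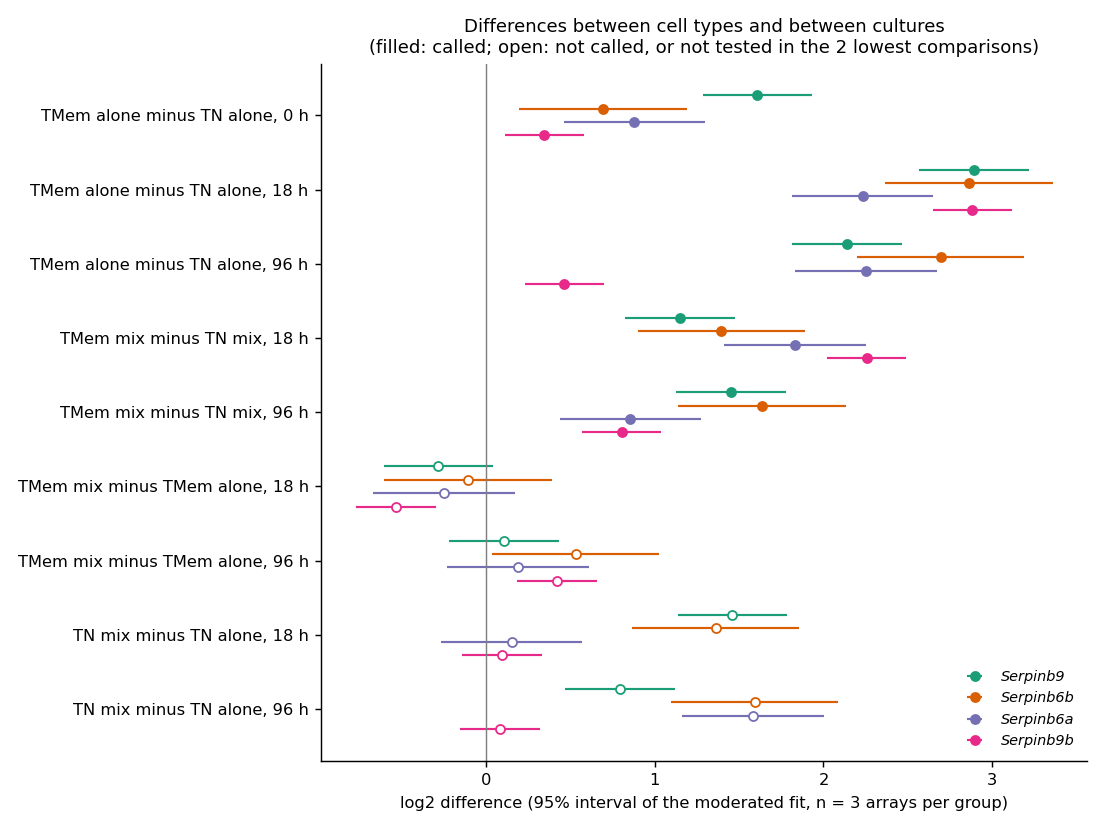
Log2 differences of the 4 serpins between cell types and between cultures, with 95% intervals from the limma fit. Filled points passed the test, and TN mix minus TN alone was not tested. TMem minus TN at 18 h alone gave 2.89 for Serpinb9 and 2.88 for Serpinb9b, while TMem mix minus TMem alone gave values between -0.53 and 0.53.

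In memory cells 3 of the serpins rose within 18 h of stimulation. In TMem alone, 18 h minus 0 h, Serpinb9b rose by 2.56 (5.90-fold, limma adjusted p = 3.89e-16), Serpinb6b by 2.39 (5.25-fold, adjusted p = 3.90e-09) and Serpinb9 by 2.26 (4.78-fold, adjusted p = 3.29e-12). Serpinb6a differed by 0.46 (adjusted p = 0.0845), and by 0.70 (adjusted p = 0.00916) without TMem 0 h replicate 1. Thus 3 of 4 members passed, where 35.3% of all genes did. Mast cell genes were lower at 18 h than at 0 h in the same arrays (5 of 8, median -0.33), and their part was not tested.

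The same stimulus gave smaller or opposite differences in naive cells. In TN alone Serpinb9 rose by 0.97 (1.97-fold, limma adjusted p = 1.22e-05) and Serpinb6a fell by 0.89 (adjusted p = 0.000837), while Serpinb6b differed by 0.23 (adjusted p = 0.546) and Serpinb9b by 0.03 (adjusted p = 0.902). Here 2 of 4 passed, against 33.8% of genes. The 95% interval for Serpinb9b was -0.21 to 0.26. The 18 h response of TMem minus that of TN was 1.28 for Serpinb9 (SE 0.22, adjusted p = 6.03e-05), 2.17 for Serpinb6b (SE 0.34, adjusted p = 1.59e-05), 1.35 for Serpinb6a (SE 0.29, adjusted p = 0.000635) and 2.53 for Serpinb9b (SE 0.16, adjusted p = 2.75e-12). All 4 of these differences between responses passed in limma, against 28.9% of genes. For Serpinb9 and Serpinb6b the TN alone arrays at 18 h also served the choice, so their tests are not independent of it. The Y-linked genes rose in TN alone over the same interval (median 2.41, 3 of 3), and in TMem alone their median was -0.21 (1 of 3 lower). Of the mast cell genes, 3 of 8 were lower in the difference between responses. The part of either was not tested.

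Between 18 h and 96 h, 3 members came back down in memory cells. In TMem alone Serpinb9b fell by 2.43, Serpinb6b by 1.70 and Serpinb9 by 1.32, with limma adjusted p-values of 1.91e-15, 2.59e-06 and 1.47e-07. Serpinb6a differed by 0.21 (adjusted p = 0.553), so that 3 of 4 passed, against 24.4% of genes. In TMem mix Serpinb9b fell by 1.48, Serpinb6b by 1.06 and Serpinb9 by 0.94, while Serpinb6a rose by 0.65 (limma adjusted p = 0.0161), and all 4 passed, against 27.6% of genes. The Serpinb6a rise was lost, at 0.53 to 0.59, without replicate 1 of TMem mix at 18 h or replicate 1 or 2 at 96 h.

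In TN alone over the same interval Serpinb6b fell by 1.53 (limma adjusted p = 1.29e-05) and Serpinb9 by 0.57 (adjusted p = 0.00703). Serpinb6a differed by 0.19 and Serpinb9b by -0.01, and 2 of 4 passed, against 24.4% of genes. In TN mix Serpinb6b fell by 1.30 and Serpinb9 by 1.24, but Serpinb6a rose by 1.62 (3.08-fold, limma adjusted p = 2.33e-07). Serpinb9b differed by -0.02 there, and 3 of 4 passed, against 37.1% of genes. Serpinb6a therefore ran against Serpinb9 and Serpinb6b in TN mix, as it did in TMem mix. Serpinb9 and Serpinb6b were chosen on these stimulated TN arrays, so their tests here are not independent of the choice. Between 18 h and 96 h in TN alone, 5 of 10 B cell and MHC class II genes were higher. Markers of myeloid cells (5 of 12), mast cells (5 of 8) and NK cells (4 of 5) were higher too. None of these was lower, while Y-linked genes were lower (3 of 3). In TN mix, 5 of 10 B cell and MHC class II genes were higher and 1 lower. Markers of myeloid cells (4 of 12), mast cells (3 of 8) and NK cells (2 of 5) were higher, and 1 of 3 Y-linked genes was lower. The part of these transcripts was not tested.

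Set against resting cells, TMem alone at 96 h was higher by 0.93 for Serpinb9 (limma adjusted p = 4.08e-05), 0.69 for Serpinb6b (adjusted p = 0.0354) and 0.67 for Serpinb6a (adjusted p = 0.0151), and 0.13 apart for Serpinb9b (adjusted p = 0.469). That was 3 of 4, against 24.5% of genes. Without TMem 0 h replicate 3 the Serpinb6b difference was 0.22 (adjusted p = 0.415) and that of Serpinb6a 0.42 (adjusted p = 0.154), and the count was then 1 of 4. Without TMem 96 h replicate 3 both also missed the threshold. The Serpinb6b difference missed it too without TMem 96 h replicate 1 or 2 or TMem 0 h replicate 2. It was 0.60 (adjusted p = 0.0752) with quantile normalization and 0.12 (adjusted p = 0.638) with array weights, and missed the threshold in a fit of the 2 groups alone (adjusted p = 0.225). The Serpinb6a difference was 0.35 (adjusted p = 0.0646) with array weights and missed it in a fit of the 2 groups alone (adjusted p = 0.0541).

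TN alone at 96 h was lower than resting TN by 1.31 for Serpinb6b (a difference of -1.31, limma adjusted p = 6.18e-05) and by 0.70 for Serpinb6a (-0.70, adjusted p = 0.00693), and higher by 0.40 for Serpinb9 (adjusted p = 0.0465). Serpinb9b differed by 0.01 (adjusted p = 0.946). That made 3 of 4, against 36.4% of genes. The TN alone arrays at 96 h also served the choice of Serpinb9 and Serpinb6b, so their tests are not independent of it. The Serpinb9 rise was lost without TN 0 h replicate 2 (0.21, adjusted p = 0.335), and also without TN 0 h replicate 3 or TN 96 h replicate 2 or 3. It was also lost with quantile normalization (0.37, adjusted p = 0.0619), with median centring (0.30, adjusted p = 0.160) and in a fit of the 2 groups alone (adjusted p = 0.193). The Serpinb6a fall was -0.50 (adjusted p = 0.0774) without TN 0 h replicate 1. Myeloid genes (4 of 12), mast cell genes (4 of 8) and B cell and MHC class II genes (4 of 10) were higher in TN alone at 96 h than at 0 h. None was lower, and their part was not tested.

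**Figure D4:**
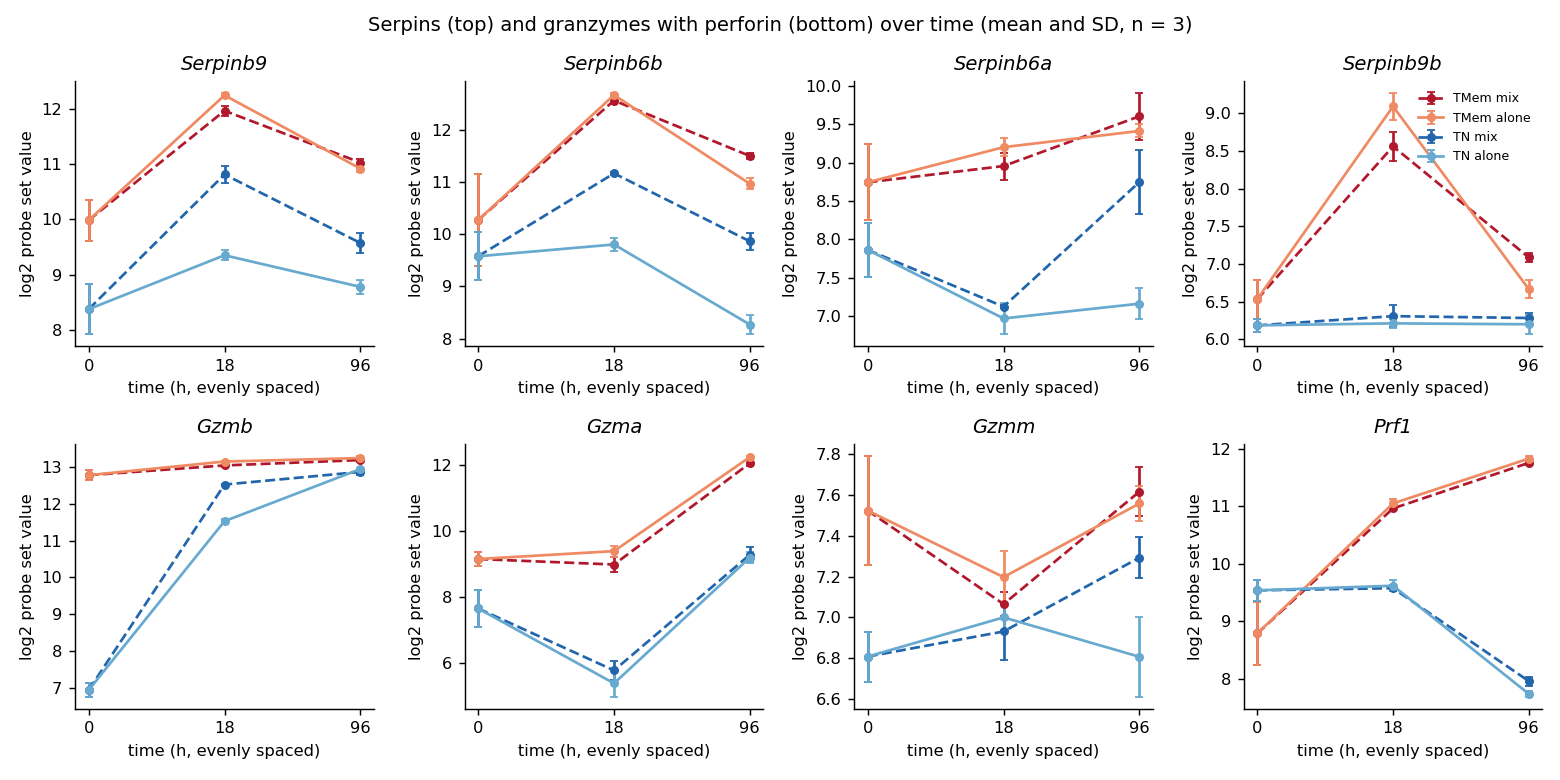
Mean and SD of 3 arrays (log2) for the 4 serpins (top) and for Gzmb, Gzma, Gzmm and Prf1 (bottom) at 0, 18 and 96 h, with times evenly spaced. Mixed cultures are drawn from the 0 h value of cells alone, since there was no mixed 0 h group. Serpinb9 and Serpinb6b peak at 18 h in TMem and TN mix, while Gzma and, in TMem, Prf1 are highest at 96 h.

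In memory cells no member passed the test between mixed and lone culture, though some differences lay near the threshold. At 18 h TMem mix differed from TMem alone by -0.28 for Serpinb9, -0.10 for Serpinb6b, -0.25 for Serpinb6a and -0.53 for Serpinb9b. None passed in the limma fit (adjusted p = 0.157 for Serpinb9b and 1 for the others), where 0.0301% of all genes did. For Serpinb9 and Serpinb9b every mixed array was below every lone array, and how often this held for other genes was not counted. The Serpinb9b fall passed in a fit to the stimulated arrays alone (adjusted p = 0.0216), and so it did with array weights (adjusted p = 0.0073).

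At 96 h the differences were 0.11 for Serpinb9, 0.53 for Serpinb6b, 0.19 for Serpinb6a and 0.42 for Serpinb9b. None passed in limma, against 1.12% of genes, with adjusted p-values of 0.608 for Serpinb6b and 0.0768 for Serpinb9b. For Serpinb6b and Serpinb9b the mixed arrays were all above the lone arrays, at 11.43 to 11.55 against 10.88 to 11.08 for Serpinb6b. Separation of this kind was not counted for other genes. Neither member passed in the main fit. Serpinb6b and Serpinb9b passed without the 0 h arrays (adjusted p = 0.000947 and 0.0219), with array weights (0.0340 and 0.00661) and in a fit of the 2 groups alone (0.0106 and 0.0337). Of 22 other protease inhibitors measured, only Serpinb1a, an inhibitor of neutrophil proteases, passed there, higher by 0.76 in TMem mix.

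Naive cells from mixed culture are the groups on which Serpinb9 and Serpinb6b were chosen. At 18 h TN mix minus TN alone was 1.46 for Serpinb9 (2.75-fold), 1.36 for Serpinb6b (2.57-fold), 0.15 for Serpinb6a and 0.10 for Serpinb9b. The arrays of TN mix and TN alone did not overlap for Serpinb9 and Serpinb6b, and did for Serpinb6a and Serpinb9b. Overlap between these groups was not counted for other genes. At 96 h the differences were 0.79 for Serpinb9 (1.73-fold), 1.59 for Serpinb6b (3.02-fold), 1.58 for Serpinb6a (3.00-fold) and 0.08 for Serpinb9b. Thus Serpinb6a stood apart at 96 h but not at 18 h, and Serpinb9b at neither time.

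Other transcripts moved between the same groups. Eif2s3y read 8.21 to 8.5 in TN mix and 8.09 to 8.25 in TN alone at 18 h, and 7.34 to 7.89 in TN mix and 4.13 to 4.2 in TN alone at 96 h. At 96 h the median difference, TN mix minus TN alone, was -0.40 for B cell and MHC class II genes, -0.36 for mast cell genes and -0.16 for myeloid genes. The part of TMem RNA and of other cells in the differences of the serpins was not tested.

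The proteases that these serpins inhibit followed other courses. Gzmb, granzyme B, averaged 12.78 in resting TMem and 6.93 in resting TN, and reached 11.53 in TN alone and 12.53 in TN mix by 18 h. In TN alone it rose by 4.6 over 18 h, in contrast to 0.97 for its inhibitor Serpinb9, and in TMem alone by 0.37, in contrast to 2.26. These differences are of separate probe sets and were not tested against each other. Gzmb averaged 13.05 to 13.25 in the stimulated TMem groups, and the highest value of any probe set was 14.16. Whether its signal in TMem was close to an upper limit was not tested. From 18 h to 96 h Gzmb rose by another 1.42 in TN alone, while Serpinb9 fell there.

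Gzma, granzyme A, averaged 7.66, 5.39 and 9.19 in TN alone at 0, 18 and 96 h, with the 18 h mean below the lower quartile of its arrays, while Serpinb6b averaged 9.58, 9.80 and 8.27. In TMem alone Gzma differed by 0.24 over 18 h, which did not pass, and then rose by 2.84. Gzmm, granzyme M, fell by 0.33 in TMem alone over 18 h, as Serpinb9b rose. Across the 10 group means the correlation of Serpinb9 with Gzmb was 0.61 and that of Serpinb6b with Gzma was 0.23, described over groups that share cell type and time.

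Among 23 granule genes, 12 were higher and 4 lower in TMem than in TN at 0 h (median difference 0.33, against 0.02 over all genes, of which 35.9% passed). At 18 h alone 12 were higher and 1 lower (median 0.37, against -0.04, with 28.9% passing), and at 96 h alone 16 were higher and 2 lower (median 0.54, against 0.01, with 22.2% passing). Prf1, perforin, was lower in resting TMem than in resting TN by 0.75 (-0.75), but higher by 1.43 at 18 h and 4.09 at 96 h. Gzmd averaged 11.23 in TMem alone at 96 h and 4.76 in TN alone, where it was below the lower quartile of the arrays. Gzmk was higher by 2.38, 0.90 and 3.40 at 0, 18 and 96 h. Cst7, an inhibitor of cathepsins that process granzymes, differed by 0.01 at 0 h, which did not pass, and was higher by 0.62 at 18 h and 0.37 at 96 h.

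In the mixed cultures 10 granule genes were higher and 2 lower in TMem than in TN at 18 h (median 0.15, against 0.01 over all genes, of which 20.4% passed), and 10 higher and 0 lower at 96 h (median 0.32, against -0.05, with 10.6% passing). Over 18 h of stimulation, 10 rose and 5 fell in TMem alone (median 0.12, against -0.09, with 35.3% passing), and 5 rose and 7 fell in TN alone (median -0.05, against -0.02, with 33.8% passing). From 18 h to 96 h, 14 rose and 2 fell in TMem alone (median 0.36, against 0.04, with 24.4% passing). Between TMem mix and TMem alone at 18 h, 2 of the 23 passed, where 0.0301% of all genes did: Gzmd fell by 1.10 and Gzme by 0.87. Between TN mix and TN alone, without a test, Gzmb differed by 1.00, Gzma by 0.39 and Prf1 by -0.04 at 18 h, and Gzmk by 1.25 and Gzmb by -0.08 at 96 h.

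The other clade B serpins were mostly dim. Of 18 measured, 14 had means below the lower quartile of their arrays in all 10 groups, and Serpinb1a, Serpinb6c, Serpinb8 and Serpinb9c exceeded it in some. In a list of 22 clade B serpins and other protease inhibitors, 1 was higher and 1 lower in TMem than in TN at 0 h, 5 were higher and 0 lower at 18 h alone, and 6 higher and 0 lower at 96 h alone. The list's median differences were -0.01, 0.03 and 0.11, against 0.02, -0.04 and 0.01 over all genes, of which 35.9%, 28.9% and 22.2% passed. Over 18 h in TN alone 0 of the list rose and 6 fell, and in TMem alone 2 rose and 3 fell, where 33.8% and 35.3% of all genes passed. These counts were near or below the share of all genes. Serpinb1a averaged 7.08 in TN alone at 0 h and 4.97 at 18 h, the second value below the lower quartile of its arrays. Several paralogues of Serpinb9 share probe sets on this array, so close copies could contribute to a reading, and this was not tested.

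Across the 10 group means Serpinb9 and Serpinb6b had a correlation of 0.95. Serpinb9b correlated with each of them at 0.84. Serpinb6a stood further off, at 0.61 with Serpinb9, 0.62 with Serpinb6b and 0.56 with Serpinb9b. Outside the 4 members, 4721 genes had means that spanned at least 1 log2 unit. Unnamed gene models, small RNAs and receptor segments among them were then passed over. Of the rest, those most like Serpinb9 were Cd44, an adhesion receptor of activated and memory T cells (r = 0.97), Otud7b (0.97), Zfp296 (0.96) and Neto2 (0.95). Those most like Serpinb6b were Dennd5a (0.95), Phlda1 (0.94), Ehd1 (0.94) and Cep85l (0.94).

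Those most like Serpinb6a were Asah1, which encodes acid ceramidase (0.99), Gdf11 (0.98) and the metallothioneins Mt1 and Mt2 (0.97 each). Those most like Serpinb9b were Lancl3 (0.99), Csf2, which encodes GM-CSF (0.99), Penk, which encodes proenkephalin (0.98), and Perp (0.98). These correlations describe 10 means that share cell type, time and culture.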

How the data were processed

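RNA from 30 sorted samples, 3 in each of 10 groups, was amplified and hybridised to Affymetrix whole-transcript arrays, 1 per sample, per the labels' protocols. The deposited values are log2 probe set intensities, and RMA and Partek are named in the submitters' processing notes without versions. RMA shares information across arrays and can compress low signals, so differences near the array lower quartile may be understated, which was not tested. The genome build of the probe annotation is not given in the sources used here.

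Of 35556 probe sets, 21789 had 1 gene symbol, 1621 several and 12146 none listed in the platform annotation. For the 999 genes with more than 1 probe set the one with the highest mean was kept, which left 19938 genes. Array medians were 6.76 to 6.94. The number of arrays limits the precision.

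One limma model (limma 3.58.1, R 4.3.3) with 10 group means and 20 residual degrees of freedom was fitted to all genes, and 16 contrasts were tested at a Benjamini-Hochberg adjusted p of 0.05. TN mix against TN alone is given without a test. A permutation test of 3 against 3 arrays cannot go below 0.1 and was not used. The arrays were not paired by repeat number in the model. The lowest correlation of same-numbered deviations passed 0.1 in 1 comparison, TN mix against TN alone at 96 h (0.14). It was between -0.34 and 0.06 in the others. With 3 arrays a group, low values cannot show that the repeats were unpaired. The code was tested on simulated data.

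The members and gene lists were chosen with earlier results of these data known. Besides the members, values are given for Gzma, Gzmb, Gzmk, Gzmm, Prf1 and Cst7, for up to 4 list genes with the largest called difference, for the 4 genes most like each member and for markers that moved with a result. Serpinb1a, Gzmd and Gzme are named under that rule. Promoters are RefSeq sequences of GRCm38.p6, found for all 4 members. Alternatives were quantile normalization, median centring, array weights, a filter on dim probe sets, the mean of the probe sets of a gene, a robust trended eBayes step, fits of subsets of arrays, a replicate block, and each array left out in turn.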

Additional observations from a re-analysis of the deposited data

Results flagged for a closer look

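The 18 h response differed between memory and naive cells for all 4 members by the test of the difference itself (limma). For Serpinb9 and Serpinb6b that test shares the TN alone arrays at 18 h with the choice of the genes. The response of TMem alone minus that of TN alone, with signs kept, was 1.28 for Serpinb9 and 2.17 for Serpinb6b on the log2 scale. It was 1.35 for Serpinb6a and 2.53 for Serpinb9b. For Serpinb6a the responses had opposite signs, 0.46 in TMem alone, which did not pass, and -0.89 in TN alone. For Serpinb9 at 18 h every TMem mix array was below every TMem alone array, and every TN mix array was above every TN alone array. Such separation was not counted for other genes. The difference in TMem (-0.28, 95% interval -0.60 to 0.04, limma adjusted p = 1) did not pass, and that in TN is the value on which Serpinb9 was chosen. The effect in TMem minus that in TN was -1.74, which was not tested and is given as a description.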

How the results depend on the processing

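Of 240 counts of called members under the alternatives, 227 stayed within 1.5 times the reported count and 13 did not. Of 1080 values of single members, 1020 stayed the same, 35 lost the call, 9 gained one and 16 changed sign. Staying the same meant keeping direction and call. For TN mix minus TN alone, which has no call, it meant a shift smaller than the pooled SD of the 2 groups. The count for TMem minus TN at 0 h was 4, and 2 with median centring or in a fit of those groups alone, and 2 to 4 with 1 array left out. For TMem alone, 96 h minus 0 h, it was 3, and 1 with array weights or in a fit of those groups alone, and 1 to 3 with 1 array left out. For TMem mix minus TMem alone it was 0 at both times; at 18 h it was 1 with array weights or without the 0 h arrays, and at 96 h it was 2 under each of these and in a fit of those groups alone. Fewer arrays entered the fits of the compared groups alone. The main fit shared the spread of each gene over all 10 groups, those at 0 h included. For Serpinb6b the SD at 0 h was 0.89 in TMem and 0.46 in TN. At 96 h it was 0.06 in TMem mix and 0.11 in TMem alone. For Serpinb9b the SDs of these groups were 0.26, 0.08, 0.06 and 0.12, in the same order. The cause of the changes in the counts was not tested.

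All changes of sign concerned Serpinb9b where its difference was near 0 and not called. For TN alone, 18 h minus 0 h, it was -0.0795 with quantile normalization, -0.1083 with median centring and -0.0207 to 0.0553 with 1 array left out. For 96 h minus 18 h these were 0.012, 0.0168 and -0.0753 to 0.0542, and for 96 h minus 0 h -0.0675, -0.0915 and -0.0487 to 0.0808, with -0.0201 under array weights. Array weights gave -0.072 for TMem alone, 96 h minus 0 h, and 0.024 for TN mix, 96 h minus 18 h, which was -0.0882 to 0.0523 with 1 array left out. A replicate block changed the call of no member in the 16 comparisons, for example 4 called with the block and 4 without it for TMem minus TN at 0 h.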
